A study of Mus musculus with 24 samples.

Results

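The variable isoforms of the protocadherin alpha and beta clusters were examined in neural stem cells carrying the MommeD43 (MD43) allele of Smchd1. Members were taken by symbol, as every gene named Pcdha or Pcdhb followed by a number, which gave 32 of the 14922 genes in the expression table. Of these, 11 belonged to the alpha cluster (Pcdha1 to Pcdha3 and Pcdha5 to Pcdha12) and 21 to the beta cluster (Pcdhb2 to Pcdhb22). The C-type isoforms and the gamma cluster were kept apart as neighbours, and Pcdha4 and Pcdhb1 were not analysed here.

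RNA-seq libraries of polyA RNA were made from 100 ng of total RNA of female primary neural stem cells, derived from the cortex of mid-gestation embryos and kept for fewer than 10 passages. These cells grew as an adherent monolayer with EGF, FGF and laminin. The FVB_WT group held Smchd1+/+ cells on the FVB/NJ background, and the FVB_MD43 group held cells homozygous for the MommeD43 allele, a point mutation in the extended ATPase domain of SMCHD1 that arose in a chemical mutagenesis screen on that background. The B6GFP groups were on C57BL/6J and carried Smchd1 as a fusion with GFP. The same mutation had been rebuilt in that fusion by CRISPR-Cas9 editing to give B6GFP_MD43. The labels of the B6GFP_WT libraries read Smchd1+/+, while the study's methods name these controls Smchd1GFP/GFP. Background strain, the GFP fusion and the origin of the allele therefore differ together between the FVB and B6GFP groups and cannot be told apart. Libraries came in 3 batches, of which batch 1 held all 4 groups, batch 2 FVB lines alone and batch 3 B6GFP lines alone.

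A replicate was a cell line, and for 5 of them a second library came from a later batch. The 5 lines of FVB_WT gave 6 libraries and the 4 lines of B6GFP_WT also gave 6. FVB_MD43 and B6GFP_MD43 had 4 lines and 5 libraries each. Another 2 columns, FVB_MD43 replicate 3 and B6GFP_MD43 replicate 2 of batch 1, equalled the mean of their group mates at every gene and were left out. Unless another fit is named, p-values below are those of limma fitted over all 14922 genes, with Benjamini-Hochberg adjustment and a threshold of 0.05. They set changes against the spread between these lines and libraries. A second fit, named voom below, used read numbers recovered for 14872 genes and was adjusted over those.

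Clustered protocadherins are cell-surface proteins of the cadherin family through which neurites of the same neuron recognise and avoid one another. In the alpha cluster each variable exon has its own promoter and is spliced to constant exons that all alpha isoforms share, whereas each beta gene is a single exon with no constant part. Individual neurons choose few of these promoters, a choice that involves DNA methylation, CTCF and cohesin, and SMCHD1 is a non-canonical SMC protein known to keep the clusters silent in neural stem cells.

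All members lie on the plus strand of mouse chromosome 18 (GRCm38.p6). Pcdha1 opens the alpha cluster at chr18:36930285-37187657, and Pcdha12, the last measured variable alpha isoform, spans chr18:37020230-37187657. Both annotations end at the same base because they share the constant exons. Of all 75-base words in the alpha transcripts with a GENCODE model, 55.2% (Pcdha2) to 64.2% (Pcdha7) also occurred in transcripts of other genes. With single-end reads of that length, reads of the constant exons cannot be assigned to 1 alpha isoform, and the levels of single alpha isoforms are uncertain for that reason. The beta genes run from Pcdhb2 (chr18:37294840-37297614) to Pcdhb22 (chr18:37518353-37521419), each as a single exon block. Their shared words ranged from 0% in Pcdhb13 to 8.96% in Pcdhb21.

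The number of reads behind these genes differed much more between the clusters and the batches than the normalised values show. Whole read numbers could be recovered from the log2 CPM of all 32 members in all 22 libraries, since each value was a whole multiple of what 1 read was worth in its library. Over all recovered genes, batch 1 libraries held 31186961 to 52943010 reads, batch 2 libraries 7954225 to 10973996 and batch 3 libraries 24294428 to 56424471. In batch 1 an alpha isoform had a median of 13 reads per library and a beta isoform 139.5. In batch 2 these medians were 1 and 17, and 30 of the 66 alpha values of that batch were 0 reads. All alpha isoforms together gave 5 to 41 reads in a batch 2 library. Pcdha1 had 0 reads in every batch 2 library, so its values there describe the floor and not a level. For the beta cluster, 1 of 126 values in batch 2 was 0 reads, that of Pcdhb12 in FVB_MD43 replicate 2.

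Per kilobase of all annotated exons, every beta isoform lay above the 10 alpha isoforms with a length. The alpha lengths include the constant exons that all alpha isoforms share. Levels per kilobase of unshared sequence were not computed, and the ranking may depend on this choice. Averaged over the 22 libraries and taken per kilobase of all annotated exons on the log2 CPM scale, the level was highest for Pcdhb20 (1.26), Pcdhb18 (0.68), Pcdhb17 (0.43), Pcdhb22 (0.36) and Pcdhb19 (0.25), all at the 3′ end of the beta cluster. The lowest beta isoform was Pcdhb13 at -3.37. Of the alpha isoforms, the highest was Pcdha9 at -3.87, followed by Pcdha12 at -4.03 and Pcdha11 at -4.44, and the lowest was Pcdha6 at -5.79. Pcdha11 has more exon sequence than its longest transcript, and per kilobase of that transcript it was at -3.88, above Pcdha12. Pcdha10 had no length in the annotation used, and its level was -1.30 log2 CPM. As log2 CPM without the length, Pcdha1 was at -3.26, Pcdha12 at -1.62, Pcdhb2 at -0.20 and Pcdhb22 at 3.08, which gives the first and last measured isoform of each cluster. In all 22 libraries, 9 of the 21 beta isoforms and 0 of the 11 alpha isoforms lay above 1 CPM.

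**Figure D1:**
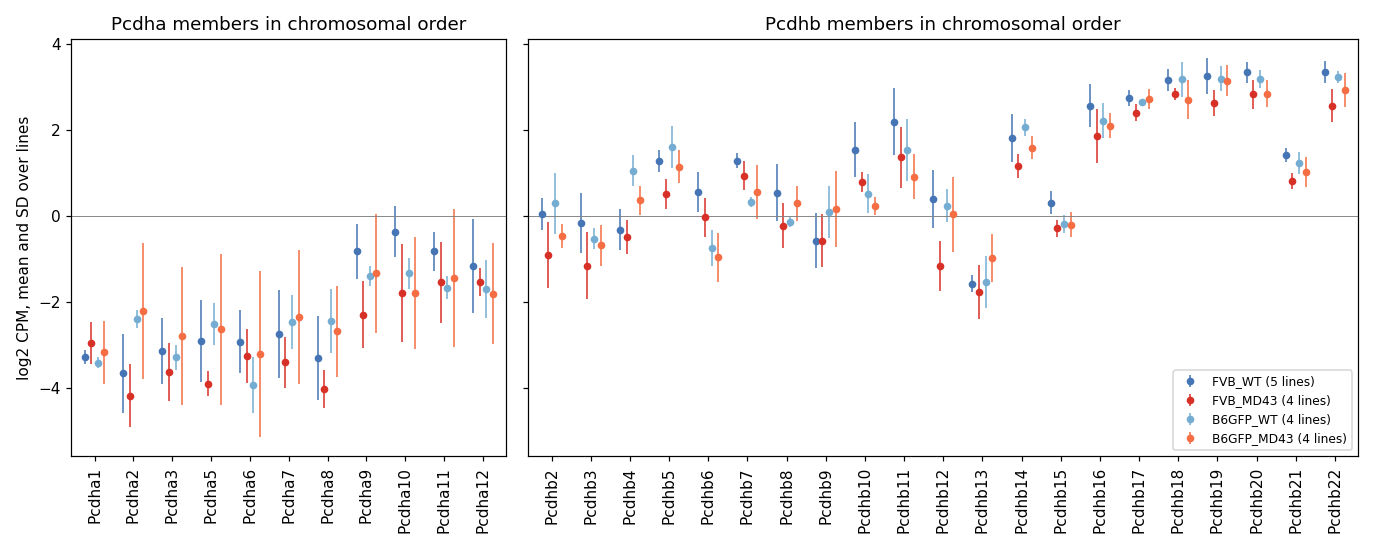
Level of each isoform in chromosomal order, as log2 CPM on the vertical axis, with 1 point per group (mean over lines) and bars for the SD over lines. The alpha isoforms rise from about Pcdha9 onward, and Pcdhb16 to Pcdhb20 and Pcdhb22 form the high 3′ end of the beta cluster in all 4 groups.

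The plot of levels in chromosomal order shows that the isoforms nearest the 3′ end of each cluster took most of its reads. Pcdhb16 to Pcdhb22 made up a median of 67.9% of the summed beta CPM in FVB_WT, 70.4% in FVB_MD43, 70.4% in B6GFP_WT and 73.8% in B6GFP_MD43. Pcdha9 to Pcdha12 made up 72.5%, 65.4%, 58.3% and 53.0% of the summed alpha CPM in the same order of groups. In the FVB libraries of batch 2, the alpha shares include isoforms with 0 reads at their floor value. Level per kilobase and position were correlated across isoforms, with Spearman's rho of 0.59 to 0.68 over 21 beta isoforms and 0.60 to 0.75 over the 10 alpha isoforms with a model in the annotation used for lengths. These are correlations across genes of the same libraries, which are not independent replicates. Pcdhb21 broke the order, since its level of -1.05 per kilobase lay below those of its neighbours Pcdhb20 and Pcdhb22. It is also the beta gene with the most shared sequence, and whether reads were lost there was not tested.

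Repeat libraries of a line differed from each other about as much as libraries of different lines. Over alpha isoforms, the median absolute difference was 0.64 log2 units for the 5 pairs of repeat libraries and 0.67 for 25 pairs of different lines of a group. The corresponding differences over beta isoforms were 0.43 and 0.42. At this depth, the isoform pattern of a line did not stand out from the spread between its own libraries. Isoforms of the same cluster did deviate together. Residuals from the group and batch means correlated with a median r of 0.54 over 210 pairs of beta isoforms, above 0 in 204 of them, and of 0.66 over 55 pairs of alpha isoforms. Between the clusters, the median r was 0.33 over 231 pairs. These points share library and depth, and without B6GFP_MD43 replicate 2 the medians were 0.61, 0.36 and 0.41.

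In the FVB background, most isoforms of both clusters lay lower in MD43 cells than in WT cells, and none passed the threshold. Fitted changes lay below 0 for 29 of the 32 isoforms, all except Pcdha1, Pcdha3 and Pcdhb13. Its median was -0.53 over the alpha isoforms (9 of 11 below 0) and -0.45 over the beta isoforms (20 of 21 below 0), against 0.01 over all genes tested, of which 6376 of 14922 lay below 0. The limma count of 0 members stands beside 0.0737% of all genes called in this comparison. At an unadjusted p below 0.05, 19 members were lower, 3 alpha and 16 beta, and 2.87% of all genes were lower by that rule. In bulk RNA, fewer cells of a type and less RNA per cell cannot be told apart.

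**Figure D2:**
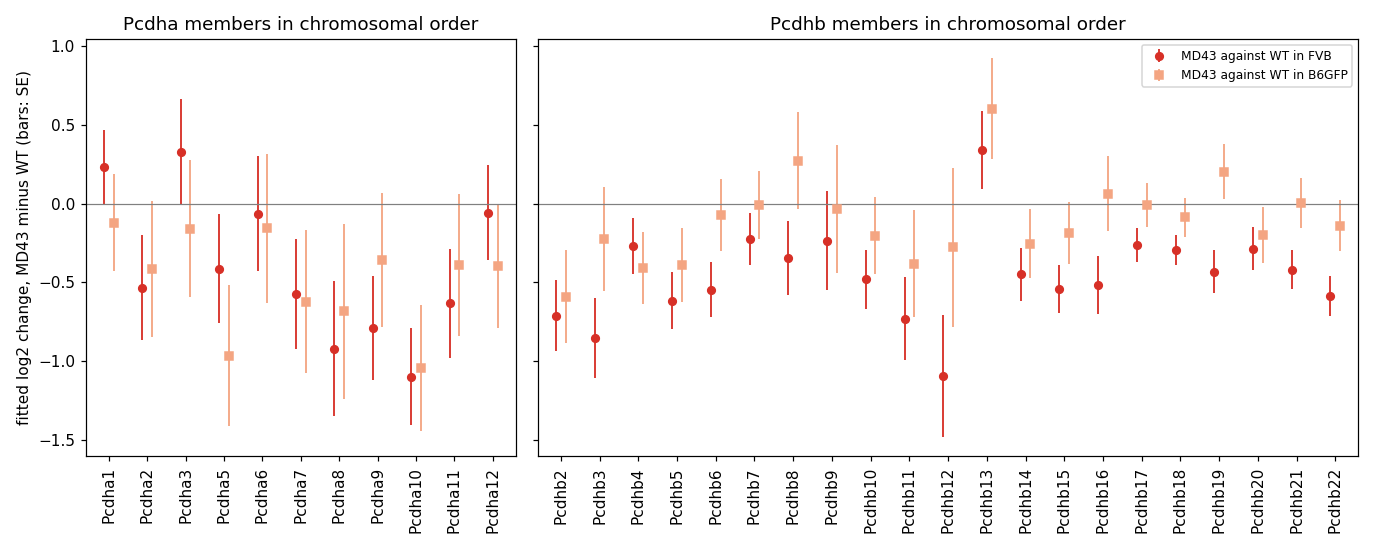
Fitted log2 change of each isoform, MD43 minus WT, in FVB (circles) and B6GFP (squares), with bars for the standard error and isoforms in chromosomal order. In FVB, 29 of 32 points lie below 0, and in B6GFP 27 of 32, with the B6GFP beta isoforms nearer to 0.

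Pcdhb22, the last gene of the beta cluster, had the smallest p of the members. Its FVB_WT libraries ran from 3.08 to 3.86 with a median of 3.30 log2 CPM. FVB_MD43 libraries read 2.69 (replicate 1), 2.93 and 2.58 (replicate 2 in batches 1 and 2), 2.84 (replicate 4) and 2.01 (replicate 5). Every mutant library lay below every control library. The fitted change was -0.59 ± 0.13 (SE) with an adjusted p of 0.087. Batch 1 alone gave -0.48 and batch 2 alone -1.16. Without FVB_MD43 replicate 2 it was called, at -0.66.

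Pcdha10 had the fitted change furthest below 0 among the alpha isoforms. Its median was -0.52 in FVB_WT (lowest -0.90, highest 0.65). The FVB_MD43 libraries read -1.25 (replicate 1), -1.75 and -1.46 (replicate 2), -0.88 (replicate 4) and -3.44 (replicate 5). Replicate 4 lay just above the lowest control library and the others below all of them. The fitted change was -1.10 ± 0.31 with an adjusted p of 0.25. The reads behind it were 40 and 29 in the mutant libraries of batch 1, against 47 to 49 in the controls, and 0 to 3 in those of batch 2, against 3 to 10. These reads are not scaled to depth, which was higher in the batch 1 mutant libraries than in the batch 1 FVB controls. Leaving out FVB_MD43 replicate 2 gave -0.74.

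Pcdhb15 was at a median of 0.46 in FVB_WT (lowest -0.06, highest 0.66). Its FVB_MD43 libraries read -0.19 (replicate 1), 0.04 and -0.18 (replicate 2), -0.47 (replicate 4) and -0.42 (replicate 5). A single mutant library, replicate 2 of batch 1, lay above the lowest control library. The fitted change was -0.54 ± 0.15 with an adjusted p of 0.25, and leaving out single lines gave values between -0.67 (called, without FVB_MD43 replicate 2) and -0.33.

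When repeat libraries were averaged per line, the mutant and control lines did not overlap for 6 beta isoforms, all lower in MD43: Pcdhb2, Pcdhb5, Pcdhb15, Pcdhb20, Pcdhb21 and Pcdhb22. The background of genes with every mutant line below every control line was 0.576%. Library by library, 4 of the 6 stayed apart, and those of Pcdhb2 and Pcdhb15 touched. The share of all genes apart by library was not computed, so the 4 have no background beside them. No alpha isoform was separated in this way.

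**Figure D3:**
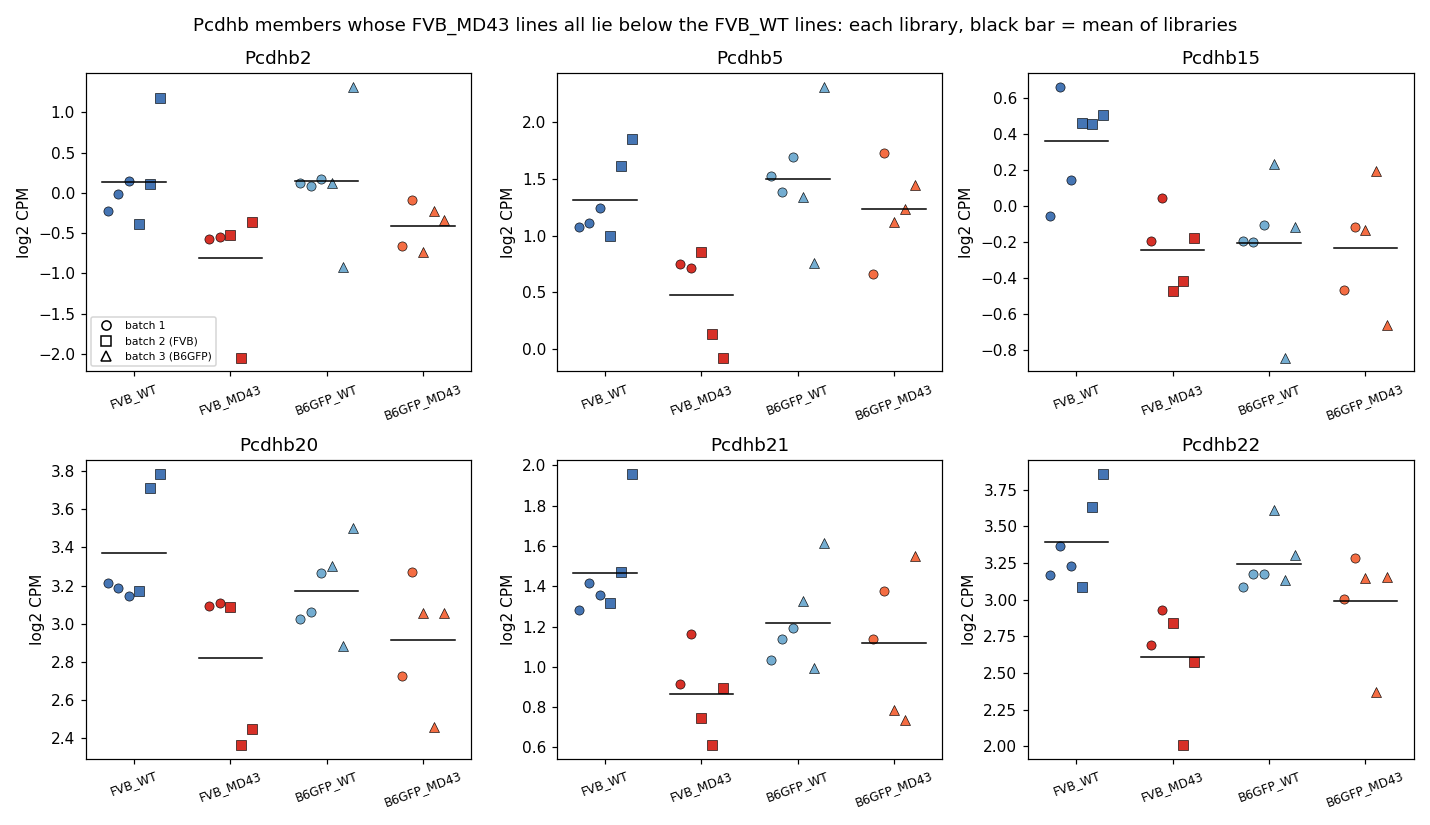
Log2 CPM of the 6 beta isoforms whose FVB_MD43 lines all lie below the FVB_WT lines, with 1 symbol per library, symbols for batches and a black bar for the mean of libraries. Pcdhb5, Pcdhb20, Pcdhb21 and Pcdhb22 have no overlap between FVB libraries, while the B6GFP groups on the right of each panel overlap.

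Of these, Pcdhb2 had FVB_WT libraries from -0.38 to 1.18 (median 0.05). Its FVB_MD43 libraries read -0.58, -0.55, -0.36 and -0.52, and -2.05 in replicate 5. Replicate 5 stood far below the rest, and the fitted change was -0.71 ± 0.23 (adjusted p 0.36).

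Pcdhb5 ran from 0.996 to 1.85 (median 1.18) in FVB_WT. In FVB_MD43 it read 0.75 (replicate 1), 0.72 and -0.08 (replicate 2), 0.85 (replicate 4) and 0.14 (replicate 5). The mutant libraries of batch 1 and replicate 4 lay just below the controls, and the other mutant libraries of batch 2 far below. Its fitted change was -0.62 ± 0.18 (adjusted p 0.31).

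Pcdhb20 was the highest isoform of either cluster per length, and its libraries were apart by a narrow gap. FVB_WT libraries ran from 3.14 to 3.79 (median 3.20), and FVB_MD43 libraries read 3.10, 3.11 and 3.09 in replicates 1, 2 (batch 1) and 4, then 2.45 in replicate 2 (batch 2) and 2.36 in replicate 5. Its fitted change was -0.29 ± 0.13 (adjusted p 0.71). Pcdhb21 ran from 1.28 to 1.96 in FVB_WT, and its mutant libraries lay between 0.61 (replicate 5) and 1.16 (replicate 2, batch 1), with a change of -0.42 ± 0.12 (adjusted p 0.31).

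Pcdhb12 and Pcdha9 also lay far below 0, on few reads in batch 2. The fitted change of Pcdhb12 was -1.10 ± 0.39 (adjusted p 0.47). Its batch 2 reads were 10 to 14 in the controls and 0 to 2 in the mutants, while in batch 1 it had 30 to 60 reads in the controls and 50 to 55 in the mutants. The fitted change of Pcdha9 was -0.79 ± 0.33 (adjusted p 0.60). Its control libraries of batch 2 held 1, 4 and 5 reads and the mutant libraries 0, 0 and 0. In batch 1 the controls held 31, 20 and 21 and the mutants 35 and 17. The batch 1 reads of both isoforms are not scaled to depth, which was higher in the mutant libraries than in the FVB controls. Pcdha11 was at -0.63 ± 0.35 and Pcdha12 at -0.06 ± 0.30, neither past an unadjusted p of 0.05. In batch 1, where depth was highest, the median change was -0.22 for the alpha and -0.34 for the beta isoforms. In batch 2 the medians were -0.70 and -1.09.

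The number of calls in FVB changed with the model. The whole reads, fitted with voom and quality weights in a model chosen after seeing the data, called 6 members, all lower in MD43, against 0.504% of all genes. These were Pcdhb22 (-0.55, adjusted p 0.012), Pcdhb6 (-0.54, 0.023), Pcdhb3 (-0.91, 0.027), Pcdha10 (-1.08, 0.032), Pcdhb21 (-0.39, 0.047) and Pcdhb15 (-0.54, 0.049). Leaving out FVB_MD43 replicate 2, the line with the largest quality weight, the limma fit on log2 CPM called 8 members beside 6.54% of all genes, and the alpha median became -0.09.

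In the B6GFP background the changes lay nearer to 0, and the direction of the medians depended on the lines and batches used. Fitted changes lay below 0 for 27 of 32 isoforms, with a median of -0.39 over the alpha isoforms (11 of 11 below 0) and -0.14 over the beta isoforms (16 of 21), against 0.01 over all genes. The limma count was 0 members and 0% of all genes. At an unadjusted p below 0.05 there were 2 members, Pcdha10 and Pcdha5, both lower, against 1.12% of all genes lower by that rule. The voom fit called 0 members and 0.0134% of genes. The alpha median was 0.22 within batch 3 and 0.13 without quality weights. The beta median was 0.01 within batch 1 and 0.17 without B6GFP_MD43 replicate 1, a single line whose absence turned it. Leaving out any 1 line kept the alpha median between -0.64 and -0.34. Without replicate 3 of B6GFP_MD43, 2 members and 0.932% of all genes were called.

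Pcdha10 in B6GFP_WT ran from -2.62 to -0.89 with a median of -1.23. B6GFP_MD43 libraries read -2.79 (replicate 1), -1.65 and -1.77 (replicate 3 in batches 1 and 3), -2.70 (replicate 4) and 0.02 (replicate 2). The groups overlapped, and replicate 2 stood above every control library. This gave a fitted change of -1.04 ± 0.40 (adjusted p 1), with -1.06 from batch 1 alone and 0.22 from batch 3 alone.

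Pcdha5 had the same shape. B6GFP_WT libraries ran from -3.73 to -1.91 (median -2.29), and B6GFP_MD43 libraries read -3.84, -3.31, -4.04 and -2.96 in replicates 1, 3 (both batches) and 4, and -0.06 in replicate 2. The change of -0.97 ± 0.45 (adjusted p 1) became 0.30 within batch 3. It rested on 2 to 6 reads in the mutant libraries other than replicate 2, which had 127.

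Pcdhb2 was at a median of 0.13 in B6GFP_WT (lowest -0.92, highest 1.32). Its B6GFP_MD43 libraries lay between -0.73 (replicate 4) and -0.09 (replicate 3, batch 1), inside the range of the controls. The fitted change was -0.59 ± 0.29 (adjusted p 1). By line, mutants and controls did not overlap for Pcdhb4 and Pcdhb14, both lower in MD43, beside 0.469% of all genes. The single libraries of these isoforms overlapped. Pcdhb13 was the largest change upward, at 0.60 ± 0.32, and it was also above 0 in FVB at 0.34 ± 0.25.

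The summed level of each cluster was also lower on average in the FVB_MD43 lines. The log2 of the summed beta CPM was 6.33 ± 0.33 (SD, n = 5 lines) in FVB_WT and 5.74 ± 0.29 (n = 4) in FVB_MD43. The FVB_WT lines read 6.12, 6.51, 6.27, 5.95 and 6.80 in order of replicate number, and the FVB_MD43 lines 5.93, 5.74, 5.97 and 5.32 for replicates 1, 2, 4 and 5. Replicate 4 of FVB_WT (5.95) fell between the mutant lines, so the groups touched there. The difference was -0.59, -0.28 within batch 1 and -0.90 within batch 2.

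In B6GFP the summed beta level was 6.18 ± 0.28 (n = 4) in WT and 5.97 ± 0.15 (n = 4) in MD43. The controls read 5.98, 6.12, 6.04 and 6.59 and the mutants 5.84, 5.88, 6.19 and 5.97, so that the groups overlapped. The difference of -0.21 was 0.02 within batch 1 and -0.26 within batch 3.

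The summed alpha level was 1.73 ± 0.57 in FVB_WT and 0.96 ± 0.29 in FVB_MD43, a difference of -0.77 (-0.43 within batch 1 and -1.11 within batch 2). In batch 2 these sums rested on 5 to 41 alpha reads per library. Isoforms with 0 reads still add their floor value to a sum, so the batch 2 sums are not levels of the reads alone. In B6GFP it was 1.29 ± 0.33 in WT and 1.35 ± 1.38 in MD43. The mutant lines there read 0.59 (replicate 1), 3.41 (replicate 2), 0.78 (replicate 3) and 0.61 (replicate 4). Without replicate 2 the B6GFP difference was -0.63 in place of 0.05.

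**Figure D4:**
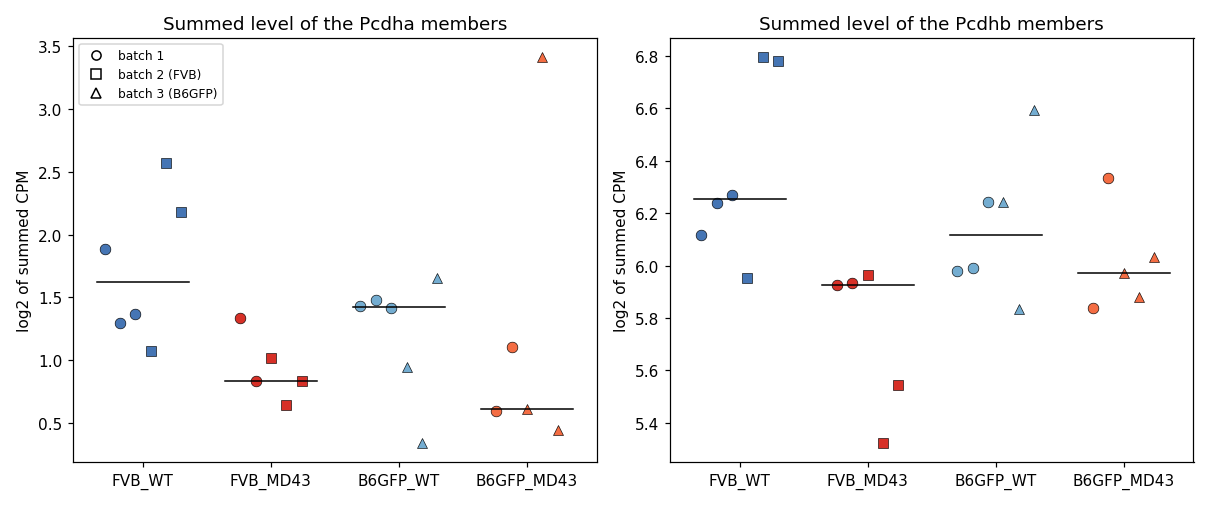
Log2 of the CPM summed over the 11 alpha isoforms (left) and the 21 beta isoforms (right), with 1 symbol per library, symbols for batches and a black bar for the median of libraries. B6GFP_MD43 replicate 2 stands at 3.41 in the alpha panel, and the FVB groups are furthest apart in batch 2.

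In the alpha isoforms, B6GFP_MD43 replicate 2 of batch 3 stood apart from its group. It held 1281 alpha reads, against 48 to 154 in the other libraries of its group. All 11 alpha isoforms lay above the other 4 libraries of the group and 9 of 11 were the highest of all 22 libraries. Pcdha11 was at 0.95 there (-2.50 to -1.91 in the others of the group), Pcdha9 at 0.73 and Pcdha2 at 0.16. Beta isoforms did not share this, since 9 of 21 lay above and 6 of 21 below the other 4. Pcdhb18, at 2.09, was the lowest of all 22 libraries.

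Neuronal and endothelial markers were also high in that library. Of the 7 neuronal markers, 6 were the highest of all 22 libraries there. Tubb3 was at 6.48 (0.74 to 3.85 elsewhere), Dcx at 5.20 (-3.35 to 2.32) and Stmn2 at 2.97 (-6.05 to -0.11). The endothelial markers Pecam1, Cldn5 and Cdh5 were highest there too. The 7 stem cell markers were mixed. Sox2, Fabp7 and Slc1a3 were lowest there, Pax6 was highest, and Nes, Vim and Hes5 ranked 2, 8 and 17 from the top. The log2 of the summed neuronal list, which Map2 dominates, ran from 9.50 to 9.86 in FVB_WT, 9.68 to 9.90 in FVB_MD43, 9.81 to 9.98 in B6GFP_WT and 9.88 to 10.4 in B6GFP_MD43. Their part in the alpha levels was not tested. That library had a quality weight of 0.158, and without its line the B6GFP medians were -0.49 (alpha) and -0.16 (beta).

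Averaged over both backgrounds, 29 of 32 isoforms lay below 0 and none was called by limma, against 0.0335% of all genes. At an unadjusted p below 0.05, 18 members were lower, beside 1.94% of all genes, and Pcdhb13 alone was higher (0.47). The smallest p belonged to Pcdha10, with a change of -1.07 ± 0.25 and an adjusted p of 0.21, followed by Pcdhb22 (-0.36 ± 0.10, 0.48) and Pcdhb2 (-0.65 ± 0.19, 0.48). Leaving out the line of B6GFP_MD43 replicate 3 gave 3 called members beside 0.61% of all genes. The voom fit called 1 member, Pcdha10 (-1.07, adjusted p 0.048), and 0.155% of all genes.

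The effect of MD43 was not shown to differ between the backgrounds for any member. In the test of the difference (B6GFP effect minus FVB effect), limma called 0 members and 0% of all genes, and voom 0 members and 0.00672%. The difference was above 0 for 20 of 21 beta isoforms, with a median of 0.28, and for 5 of 11 alpha isoforms. At an unadjusted p below 0.05 there were 3 members, Pcdhb19 (0.64 ± 0.22), Pcdhb22 (0.45 ± 0.21) and Pcdhb21 (0.42 ± 0.20), each with an adjusted p of 1. The limma share of all genes by that unadjusted rule is not given here. By the same rule, voom had 7 beta isoforms, all above 0, and 0 alpha isoforms, beside 800 of 14872 genes in either direction. Pcdhb19 read 2.93, 2.76, 2.21, 2.83 and 2.27 in FVB_MD43 beside 2.81 to 3.95 (median 3.11) in FVB_WT. In B6GFP_MD43 it read 3.19, 3.55, 3.43, 3.28 and 2.65, beside 2.91 to 3.59 (median 3.13) in B6GFP_WT. Apart from replicate 2, the B6GFP mutant libraries lay within the range of their controls.

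Between the WT groups, the isoforms called were beta isoforms in both directions and 2 alpha isoforms, both higher in B6GFP_WT. Of all 11 alpha isoforms, 5 had a fitted change below 0 and 6 above. Of 32 members, 8 were called, beside 41.1% of all genes, so the share of members (5 lower in B6GFP_WT against 23.2% of all genes, 3 higher against 17.9%) was no larger than that of genes at large. The median change was 0.01 over the alpha and -0.19 over the beta isoforms, against -0.02 over all genes. Only batch 1 held both backgrounds, so the offset between them is estimated from that batch. Reads were mapped to the C57BL/6J reference, and the part of FVB sequence differences in these values was not tested.

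Pcdhb6 had the smallest p. FVB_WT libraries ran from -0.0045 to 1.28 (median 0.56) and B6GFP_WT libraries from -1.30 to -0.12 (median -0.92). The groups did not overlap, and the change was -1.42 ± 0.20 (adjusted p 9.2e-06). Its neighbour Pcdhb7 ran from 0.99 to 1.70 (median 1.34) in FVB_WT and from -0.21 to 0.61 (median 0.42) in B6GFP_WT. The libraries of Pcdhb7 were likewise apart, with a change of -0.86 ± 0.19 (adjusted p 0.0011).

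Pcdhb4 differed in the opposite direction. It ran from -0.99 to 0.34 (median -0.31) in FVB_WT and from 0.65 to 1.60 (median 0.90) in B6GFP_WT. These groups did not overlap, and the change was 1.07 ± 0.20 (adjusted p 2.3e-04). The share of all genes whose libraries did not overlap between the WT groups was not computed. Pcdhb4, Pcdhb6, Pcdhb7, Pcdhb10 and Pcdha2 were called with any single line left out.

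**Figure D5:**
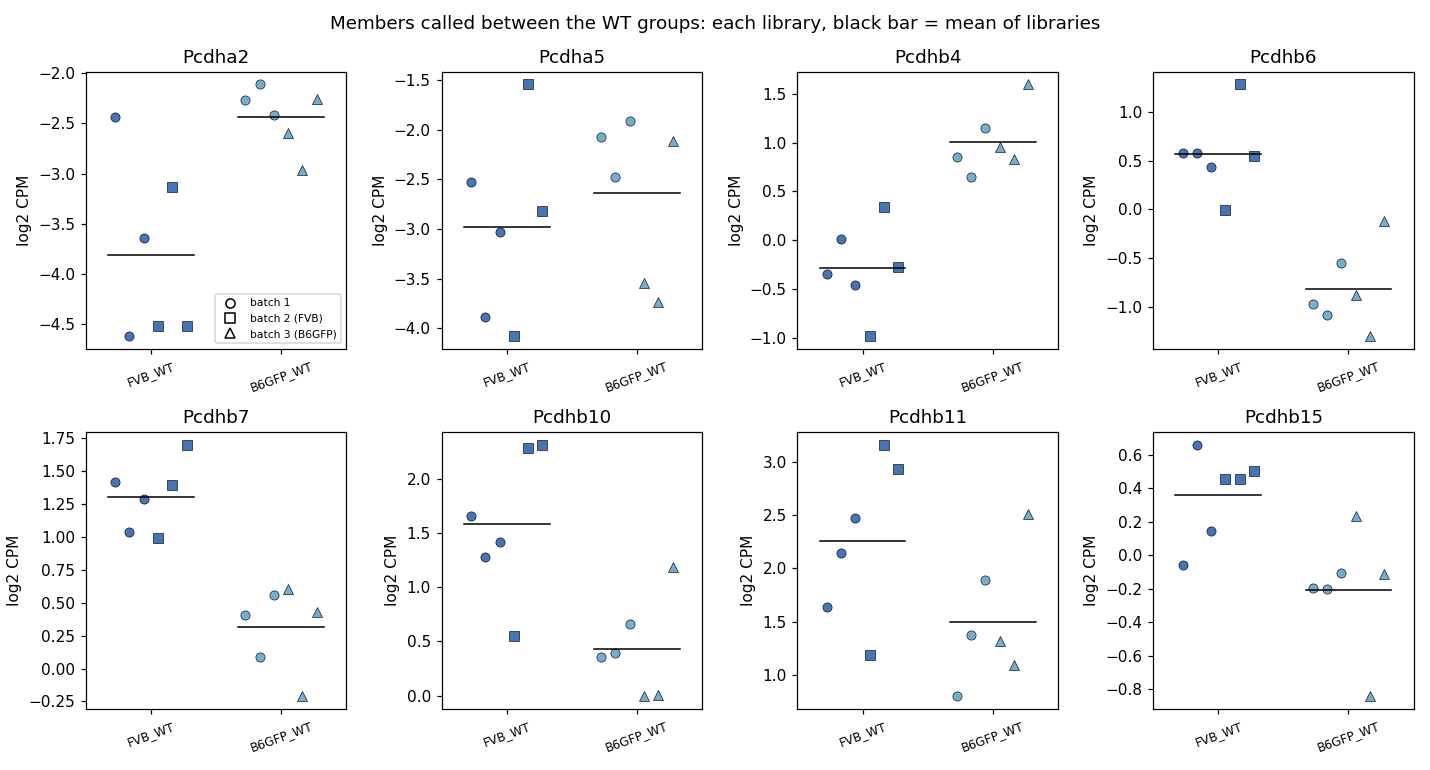
Log2 CPM of the 8 isoforms called between FVB_WT and B6GFP_WT, with 1 symbol per library, symbols for batches and a black bar for the mean of libraries. Pcdhb4, Pcdhb6 and Pcdhb7 have no overlap between the groups, and Pcdha2, Pcdha5, Pcdhb10, Pcdhb11 and Pcdhb15 overlap in at least 1 library. The share of all genes without overlap was not computed.

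Pcdhb10 ran from 0.55 to 2.32 (median 1.54) in FVB_WT and from -0.01 to 1.19 (median 0.37) in B6GFP_WT. FVB_WT replicate 4 and B6GFP_WT replicate 4 made the overlap, and the change was -1.01 ± 0.21 (adjusted p 7.0e-04). Pcdhb11 ran from 1.19 to 3.16 in FVB_WT and from 0.80 to 2.51 in B6GFP_WT, with a change of -0.92 ± 0.30 (adjusted p 0.017) that was called in 13 of 17 fits without 1 line. Pcdhb15 ran from -0.06 to 0.66 and from -0.84 to 0.24, with a change of -0.63 ± 0.17 (adjusted p 0.0058) called in 16 of the 17.

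Both alpha isoforms called were higher in B6GFP_WT and rested on few reads. Pcdha2 ran from -4.62 to -2.43 (median -4.08) in FVB_WT and from -2.96 to -2.11 (median -2.34) in B6GFP_WT. In batch 1 these were 14, 2 and 6 reads against 22, 23 and 20, and the change was 1.92 ± 0.38 (adjusted p 3.9e-04). Pcdha5 held 9, 3 and 7 reads against 18, 12 and 21 in batch 1, and its change was 1.06 ± 0.39 (adjusted p 0.035), called in 12 of 17 fits without 1 line. Without quality weights 2 members were called in this comparison, Pcdhb4 and Pcdhb6, beside 8.44% of all genes. Without FVB_WT replicate 2 there were 5, beside 26.9%. The voom fit called 10 members, beside 40.3% of all genes.

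The neighbours on the same stretch of chromosome 18 had medians near 0. The 19 variable gamma isoforms, made from the next cluster downstream, had a median change of 0.02 in FVB, with 9 of 19 below 0. Of these, limma called 1 in FVB and voom 2, all higher. The isoform limma called was Pcdhga12, which was named after its values were seen and was higher in MD43 by 1.02 ± 0.13 (adjusted p 5.0e-04). In B6GFP the gamma median was -0.02, with 11 of 19 below 0. There limma called 0 gamma isoforms, with 4 lower and 3 higher at an unadjusted p below 0.05, and voom called 1 higher. In the average of both backgrounds limma called 2 higher, Pcdhga12 (0.83) and Pcdhgb7 (0.44), and voom 2 higher and 1 lower. The 5 C-type isoforms had a median of 0.16 in FVB and 0.0024 in B6GFP, with 0 called by limma or voom in either and 0 at an unadjusted p below 0.05. The difference between these neighbours and the alpha and beta isoforms was not tested.

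The level of Smchd1 ran from 6.96 to 7.38 in FVB_WT, 7.28 to 7.42 in FVB_MD43, 6.58 to 7.31 in B6GFP_WT and 6.99 to 7.42 in B6GFP_MD43. The fitted change was 0.05 in FVB (adjusted p 0.94), -0.01 in B6GFP (adjusted p 1) and -0.22 between the WT groups (adjusted p 0.014). MD43 is a point mutation, so the amount of Smchd1 RNA is no check of the genotype labels. Of 19 measured regulators of the clusters, among them Ctcf, the cohesin genes and the DNA methyltransferases, 0 were called by limma or voom in FVB, B6GFP or the average of both, and 0 had an unadjusted p below 0.05 in those comparisons. Between WT groups limma called 3 lower and 7 higher in B6GFP_WT and voom 3 lower and 6 higher, where 23.2% of all genes were lower and 17.9% higher by limma. The smallest p belonged to the cohesin subunits Smc1a (0.22), Smc3 (0.19) and Stag1 (0.18). Of 10 measured partners of the cell-surface proteins, 0 were called by either tool with MD43 and none had an unadjusted p below 0.05, while 1 was lower and 3 higher between WT groups by both tools, a share close to the 41.1% of all genes called there. Nckap1, a subunit of the WAVE complex, was higher by 0.53, the focal adhesion kinase Ptk2 was higher by 0.23, and the membrane protein Marcks fell by 0.52.

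All 7 stem cell markers were measured, and the log2 of their summed CPM ran from 12.4 to 12.9 over the groups, without a gap between WT and MD43 in either background. Oligodendrocyte lineage markers, some of which cultured neural progenitors also express, summed to 10.4 to 11.2. The microglial list had 1 of 4 genes in the table, with values of -0.78 to 1.55, and outside B6GFP_MD43 the summed endothelial and fibroblast lists reached 0.82 and 1.74 at most. In FVB, where most isoforms lay lower in MD43, the summed neuronal markers, mostly Map2, had medians of 9.74 in WT and 9.75 in MD43. Singly, 0 of the 7 neuronal markers were called by limma or voom, with fitted changes below 0 for 3 and above 0 for 4. The neuronal splicing factor Rbfox3 was the 1 marker at an unadjusted p below 0.05, at -1.17 ± 0.28 in FVB (adjusted p 0.14) and -0.80 ± 0.23 in the average (adjusted p 0.48). Its libraries ran from 0.82 to 2.63 in FVB_WT and from -1.12 to 1.14 in FVB_MD43, which overlapped, and its part in the isoform levels was not tested.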

How the data were processed

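The authors trimmed reads with Trim Galore 0.4.4, mapped them with HISAT2 2.0.5 to GRCm38.p6 and used limma 3.40.6 to make the deposited log2 CPM, corrected for batch. The counter, its annotation and its use of strand are not given in the sources used here, so reads from the opposite strand cannot be told apart. From these values, limma 3.58.1 in R 4.3.3 fitted group and batch with quality weights, a mean-variance trend and the line as random block (correlation 0.0829), and differences in log2 CPM were tested with Benjamini-Hochberg adjustment. No filter was applied. Reads were recovered as whole multiples of each library's step (tolerance 0.02 reads) for 14872 genes and refitted with voom and quality weights. The script was tested on simulated data. The members and lists were chosen with earlier results of these data known. Full values were given for called members (otherwise the 3 with the smallest p), the 3 highest by log2 CPM and the first and last of each cluster; Pcdhb5, Pcdhb12, Pcdhb20, Pcdhb21 and others named for separation or few reads were chosen after their values were seen. Replicate numbers did not pair the groups: same-numbered lines deviated with r from -0.484 to 0.138. Sequences are not reported here.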

Additional observations from a re-analysis of the deposited data

Results flagged for a closer look

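Within groups of 4 or 5 lines, the lowest or highest line stood far from the rest in 10 of 80 groups of values, where chance gives about 1 in 20. The 80 groups cover the 18 isoforms chosen to be given in full and the summed level of each cluster, in each of the 4 groups. The other isoforms were not screened in this way. Groups of values that share the same lines are not independent.

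Of these, 4 came from B6GFP_MD43 replicate 2, the library with high neuronal and endothelial markers: Pcdha2 at 0.16, Pcdha9 at 0.73, Pcdha11 at 0.95 and the summed alpha level at 3.41 on the log2 CPM scale. B6GFP_WT replicate 4, a line with a single library of quality weight 0.101, was high for Pcdhb6 (-0.12) and Pcdhb10 (1.19). In FVB_MD43, Pcdha1 was high in replicate 1 (-2.22), Pcdhb2 low in replicate 5 (-2.05) and Pcdhb4 high in replicate 4 (0.093). In FVB_WT, Pcdha11 was high in replicate 5 (-0.023).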

How the results depend on the processing

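Under the settings other than leaving out a line, 229 changes of single members kept direction and side of the threshold, 9 lost a call, 12 gained one and 2 turned. Within batch 3, Pcdha10 and Pcdha5 in B6GFP were at 0.22 and 0.30. With all 24 columns, which counts group means as libraries, 18 members were called in FVB, 1 in B6GFP, 15 in the average and 1 in the difference between backgrounds, beside 3.42%, 3.22%, 6.77% and 0.409% of all genes. Without a batch term 1 was called in FVB, beside 0.101% of all genes. With whole reads and voom 6 were called in FVB (0.504% of all genes) and 1 in the average (0.155%). Without quality weights 2 were called between WT groups (8.44%). The cause was not tested. Within batch 2 the beta median in FVB was -1.09, and within batch 1 the summed beta difference in B6GFP was 0.016. Leaving out single lines gave 0 to 8 calls in FVB, 0 to 2 in B6GFP, 0 to 3 in the average and 5 to 9 between WT groups. In the same fits, 0.0201% to 6.54% of all genes were called in FVB and 0% to 0.932% in B6GFP. In the average it was 0.0134% to 0.61%, and between WT groups 26.9% to 42.9%. The beta median in B6GFP was -0.19 to 0.17. The replicate numbers pair no lines. With the replicate block in place of the line, 0 members were called in the MD43 comparisons. Of all genes, 0.101% were called in FVB, 0.0067% in B6GFP and 0.067% in the average. The medians were -0.57 (alpha) and -0.46 (beta) in FVB and -0.22 and -0.03 in B6GFP. Depth limits the alpha isoforms most, with a median of 1 read per value in batch 2.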
